A study of Rattus norvegicus with 6 samples.

Results

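Interleukin-6 signalling and its acute-phase output were followed through 8 genes: the ligand Il6, the signal-transducing receptor chain Il6st (gp130), the transcription factors Stat3, Cebpb and Cebpd, the inhibitor Socs3, and the secreted protease inhibitors A2m (alpha-2-macroglobulin) and Timp1. The members were found by gene name among the 36410 targets of the array. They were represented by 9 probes, 1 for each gene and 2 for Stat3. Of these 9 probes, 8 rose well above background on 1 array or more and were tested. On all 6 arrays 5 of the 9 did so, beside 28.4% of all probes.

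RNA from spinal cord sections of adult Lewis rats was measured on 6 one-colour arrays, 1 array for each of 6 groups, so no group had a replicate. The sections were formalin-fixed and paraffin-embedded, and each array carried the pooled RNA of 5 rats, or of 3 rats for the healthy control, amplified before labelling. Rats of the ENMO group (experimental neuromyelitis optica) received T cells specific for myelin basic protein on day 0 and NMO-IgG, human IgG containing antibodies to the astrocyte water channel aquaporin-4, on day 4. Rats of the EAEcoI group (experimental autoimmune encephalomyelitis) received the same T cells and control human IgG, and rats of the EAEcoP group the T cells and PBS. The NMO-IgG only and control IgG only groups received IgG and no T cells, and the healthy control was left untreated. The treated rats were killed 24 h after the antibody or PBS, which was day 5 after the T cells.

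Interleukin-6 binds its receptor chain IL-6R and then gp130, which activates JAK kinases and the transcription factor STAT3. STAT3 drives Socs3, whose product blocks the same receptor, and acts with C/EBP-beta and C/EBP-delta on acute-phase genes. In the rat, A2m is the classical strong acute-phase gene of the liver, and in the central nervous system IL-6 is made by astrocytes, microglia and infiltrating cells. The comparisons made here asked whether these genes differed between arrays with and without T cells, and between NMO-IgG and control IgG.

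Values are normalized signal intensities (NSI), the quantile-normalized background-corrected brightness of a probe in arbitrary units. Folds compare a probe with itself on another array, since levels of different probes are not on one scale. The sums of NSI over marker lists below weight their brightest probes most. For a probe printed as 10 spots, the spread of its spots gave a technical error. Over the 263 probes of this kind, the difference between single spots on 2 arrays had an SD of 0.766 on the log2 scale, or 1.7-fold, falling to 1.47-fold at signals of 100 or more. This spread holds neither the differences between rats nor those of the amplification. With 3 arrays against 3, the smallest two-sided p of an exact permutation test is 0.1, so only the fit over all probes could test a member.

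The probes that measured the ligand, a target, the inhibitor and one of the Stat3 signals are shown here because the values below are those of these 60-base stretches alone. They are printed 5′ to 3′ in lower case, with no stretch singled out.
Il6: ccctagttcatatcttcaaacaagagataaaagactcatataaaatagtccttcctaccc
Timp1: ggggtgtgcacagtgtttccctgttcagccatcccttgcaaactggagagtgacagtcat
Socs3: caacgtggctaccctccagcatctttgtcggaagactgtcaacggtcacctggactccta
Stat3, 1-spot probe: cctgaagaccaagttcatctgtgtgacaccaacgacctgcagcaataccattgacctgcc
The array files place the Il6 probe at chr4:457279-458563 and the Timp1 probe at chrX:12542700-12543703 in a rat build that they do not name. These placements span 1285 and 1004 bases for a probe of 60, and the 1-spot Stat3 probe spans 351, so all 3 probes bridge an intron in that placement. The other Stat3 probe lies at chr10:89821145-89821204, in one block.

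The promoter of Il6 is shown because its window holds motif letters for C/EBP, the factor family of which Cebpb and Cebpd are members. It is the 250 bases before the annotated start on the minus strand (chr4:5894576-5894825, RefSeq, GRCr8), and capitals mark the match.
Il6 promoter: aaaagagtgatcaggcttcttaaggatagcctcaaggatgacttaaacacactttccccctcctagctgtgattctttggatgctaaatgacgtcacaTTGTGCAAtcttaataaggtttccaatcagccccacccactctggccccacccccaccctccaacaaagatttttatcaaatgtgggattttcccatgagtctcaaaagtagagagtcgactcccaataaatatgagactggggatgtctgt
The C/EBP letters TTGCNNAA were matched on the opposite strand, from 152 bases before the start. Among 33469 rat promoter windows of the same source, 300 bases long, 10.6% held these letters on either strand. Of the 6 members with a window, Il6 alone held them, and 0 held the STAT letters TTCNNNGAA (8.87% of all windows) or the AP-1 letters TGANTCA (7.33%). A2m and Cebpd were the other members.

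Il6 was lowest on the arrays of rats with T cells and no NMO-IgG. Its NSI was 39.4 in ENMO, 19.5 in EAEcoI and 6.65 in EAEcoP, against 74.7 with NMO-IgG only, 26.5 with control IgG only and 47 in the healthy control. All 6 arrays were above background, but the ranges with and without T cells overlapped, since ENMO lay above control IgG only. With T cells the mean was lower by a log2 difference of -1.40 with an SE of 0.73, which did not pass the limma test (adjusted p = 0.489). Il6 was lower with T cells in each of the 3 pairs of equal antibody treatment, by log2 -0.92, -0.45 and -2.82 for NMO-IgG, control IgG and no antibody. Over all probes, 15.2% were lower in all 3 pairs. On the 2 slides the log2 difference was -0.71 within slide 1 and -1.61 within slide 2.

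In the order of the 6 Il6 levels, several neighbours were not apart beyond their spots. The healthy control exceeded ENMO by log2 0.25 with a spot SE of 0.37, ENMO exceeded control IgG only by 0.57 with a spot SE of 0.42, and EAEcoI differed from control IgG only by -0.45 with a spot SE of 0.43. EAEcoP stood apart at the bottom, 7.07-fold below the healthy control (log2 -2.82, spot SE 0.28) and 2.93-fold below EAEcoI. Spots of the Il6 probe scattered widely: on ENMO they ran from 6.47 to 73 in processed signal with a median of 43.7, and on control IgG only 4 of the 8 spots used were well above background.

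**Figure D1:**
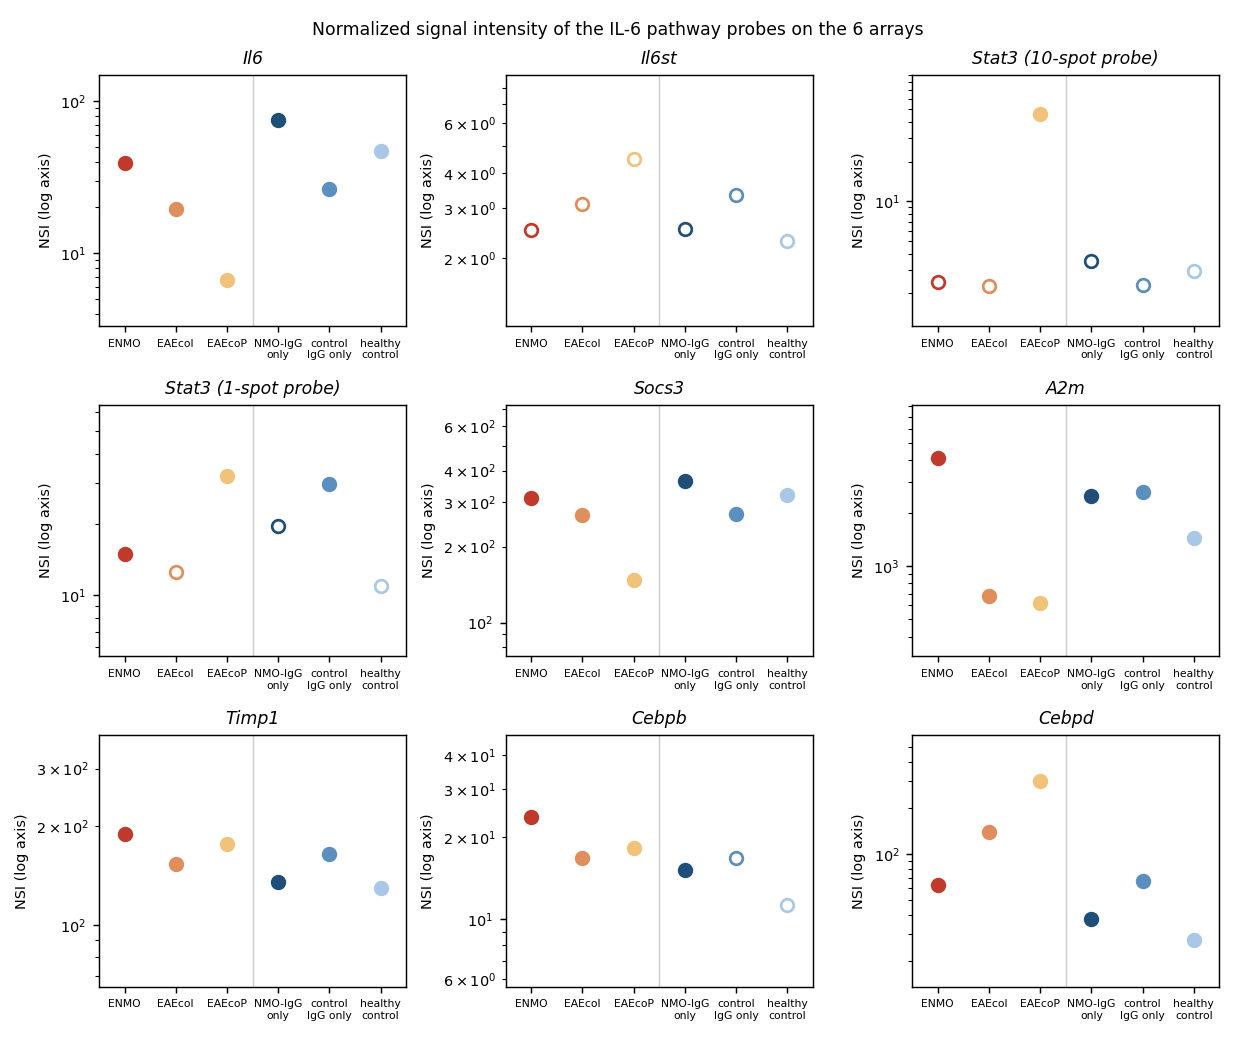
NSI of the 9 member probes (log axis, arbitrary units) on the 6 arrays, 1 point for each array; filled points were well above background and open points were not. The grey line divides arrays with T cells (left) from those without. Il6 reached its lowest value, 6.65, in EAEcoP, where Cebpd reached its highest, 299, and A2m was lowest in EAEcoI and EAEcoP.

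Il6 was higher with NMO-IgG than with control IgG whether or not T cells had been given. The ratio was 2.02-fold with T cells (ENMO over EAEcoI; log2 1.02, spot SE 0.45) and 2.82-fold without (log2 1.49, spot SE 0.37). Of all probes, 1.43% were at least 2-fold higher in both backgrounds, and Il6 was the only such probe of the 8 tested. In the additive limma fit, which takes the antibody effect to be the same with and without T cells, the log2 difference was 1.25 with an SE of 0.84 (adjusted p = 1). NMO-IgG only also exceeded the healthy control, by 1.59-fold (log2 0.67, spot SE 0.31). Both ratios stayed above 1 under the 5 alternatives run, but in only 1 of the 5, with outlier spots kept, did both pass 2-fold. The ratio with T cells was log2 0.98 with 75th percentile scaling, 0.91 with local trends removed, 0.29 in the per-target intensities and 0.13 with normexp, which adds an offset of 50 to signals while the median spot of Il6 lay between 12.9 and 71.2.

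**Figure D2:**
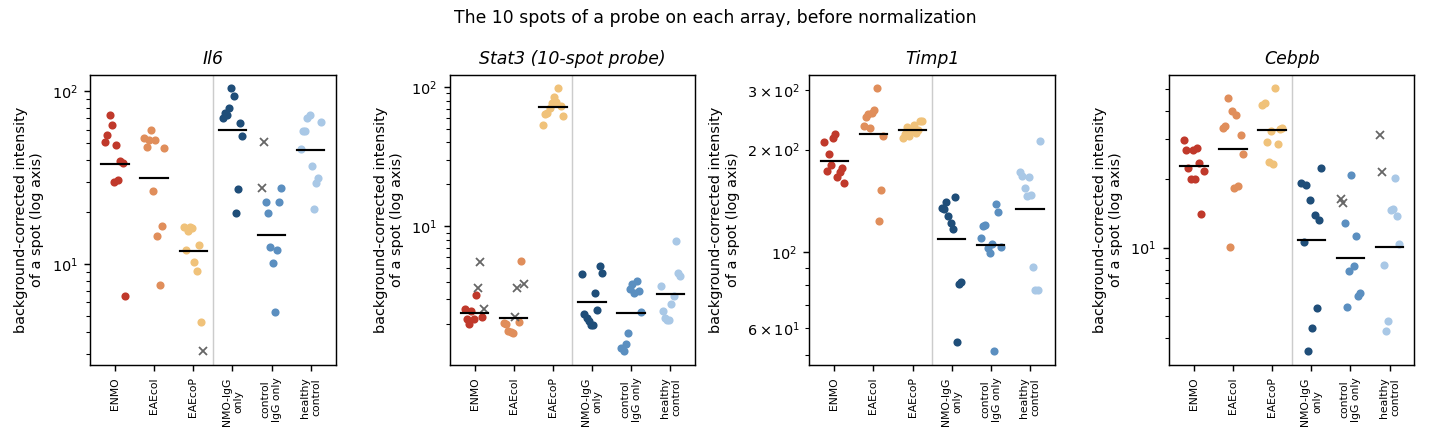
Background-corrected intensity before normalization (log axis, arbitrary units) of each of the 10 spots of the Il6, 10-spot Stat3, Timp1 and Cebpb probes on the 6 arrays. Points are spots, crosses are spots left out as outliers and bars are geometric means of the spots used; all 10 Stat3 spots in EAEcoP (53.7 to 98.9) lay above every spot of the other arrays, while Il6 spots of one array spread over several-fold.

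The chains of the IL-6 receptor could not be measured. Il6st had an NSI between 2.29 and 4.47 on the 6 arrays, and none of the arrays was well above background, as was the case for 33% of all probes. Il6ra, which encodes the IL-6-binding chain, ranged from 2.01 to 9 and was not well above background on any array either. Il6st was therefore not tested, and no fold is given.

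The 2 probes of Stat3, which encodes the factor activated through gp130, gave different pictures. The 10-spot probe had an NSI of 45.7 in EAEcoP, where all 10 spots were well above background with an SD of 0.25 (log2). On the other arrays it read 2.45 in ENMO, 2.26 in EAEcoI, 3.52 with NMO-IgG only, 2.33 with control IgG only and 2.94 in the healthy control, and no spot was well above background. Against the detection floor of each array, EAEcoP was at least 5.58-fold higher than ENMO, at least 7.34-fold higher than EAEcoI and at least 4.35-fold higher than the healthy control. Among tested probes, 13.1% were well above background on EAEcoP alone.

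The 1-spot Stat3 probe read 15 in ENMO, 12.6 in EAEcoI and 32.3 in EAEcoP, against 19.8, 29.6 and 11 with NMO-IgG only, with control IgG only and in the healthy control. It was well above background in ENMO, EAEcoP and control IgG only. EAEcoP was again the highest array, but only 1.09-fold above control IgG only. The T-cell difference was log2 -0.03 with an SE of 0.61 for this probe (limma adjusted p = 0.989) and 1.13 with an SE of 1.04 for the 10-spot probe (adjusted p = 0.677). The latter rested on EAEcoP and was -0.30 without that array.

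More spots were flagged as well above background in EAEcoP, 60.22%, than in any other array, with 54.12% for EAEcoI, 44.45% for ENMO and between 35.43 and 41.68% for arrays without T cells. EAEcoP held the highest NSI of the 6 arrays for 31.5% of all tested probes. The part of this difference between arrays in the Stat3 and Cebpd values was not tested.

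Cebpd, which encodes the C/EBP-delta factor induced in acute-phase responses, was the member with the largest T-cell difference. Its NSI was 63.3 in ENMO, 140 in EAEcoI and 299 in EAEcoP, against 37.7 with NMO-IgG only, 67 with control IgG only and 27.4 in the healthy control. The groups overlapped by 1 array, since ENMO fell just under control IgG only. The mean with T cells was 3.37-fold higher (log2 1.75, SE 0.68), with an unadjusted p of 0.0279 and an adjusted p of 0.377 in the limma fit, so it did not pass. It was the only one of the 8 tested member probes with an unadjusted p under 0.05, a share to be read beside 11.5% of all probes in this comparison.

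Within antibody treatments, Cebpd was higher with T cells in all 3 pairs, by log2 0.75 with NMO-IgG, 1.06 with control IgG and 3.45 without antibody, and 18.6% of all probes were higher in all 3. Within slides the difference was log2 1.04 and 2.12. Its order over the arrays with T cells, EAEcoP above EAEcoI above ENMO, was opposite to that of Il6, and each of these orders was common (20.2% of all probes for that of Cebpd and 23% for that of Il6). Neighbours in this order differed by 2.13-fold and 2.21-fold. The SD of a difference between single spots was 1.7-fold, which is not a limit and holds no difference between rats. NMO-IgG gave lower Cebpd than control IgG in both backgrounds, 2.21-fold with T cells and 1.78-fold without, and the additive fit gave a log2 difference of -0.99 with an SE of 0.88 (limma adjusted p = 1).

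Cebpb, which encodes C/EBP-beta, was dim. Its NSI was 23.8 in ENMO, 16.8 in EAEcoI and 18.3 in EAEcoP, all 3 well above background, against 15.1 with NMO-IgG only, which was also above background. The control IgG only and healthy control arrays, at 16.8 and 11.3, were not. The T-cell difference was log2 0.45 with an SE of 0.50 (limma adjusted p = 0.729). ENMO exceeded EAEcoI by log2 0.50 with a spot SE of 0.23, and EAEcoI and control IgG only were level. In the per-target intensities, which were not normalized between arrays, the T-cell difference was 1.13 (all targets had a median of 0.38). There, ENMO over EAEcoI turned to -0.73.

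Socs3, the feedback inhibitor of gp130 signalling, was lowest in EAEcoP. Its NSI was 311 in ENMO, 268 in EAEcoI and 147 in EAEcoP, against 365, 270 and 321 with NMO-IgG only, with control IgG only and in the healthy control. The 5 arrays other than EAEcoP lay so close that no neighbours among them differed by more than 1.15-fold. EAEcoP was 1.82-fold below EAEcoI and 2.18-fold below the healthy control. The T-cell difference was log2 -0.46 with an SE of 0.53 (limma adjusted p = 0.742), and NMO-IgG over control IgG was 1.16-fold with T cells and 1.35-fold without.

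A2m was the member with the largest ratio of ENMO to EAE. Its NSI was 4089 in ENMO, 682 in EAEcoI and 619 in EAEcoP, against 2497 with NMO-IgG only, 2625 with control IgG only and 1446 in the healthy control. Both EAE arrays thus lay below all arrays without T cells and ENMO above them, a pattern in which the EAE arrays lay under the other 4 for 14.3% of all probes. ENMO was 6.29-fold above the mean of the EAE arrays, 6-fold above EAEcoI and 6.60-fold above EAEcoP, which shared its slide. Of all probes, 6.61% were at least 2-fold higher in ENMO than in each EAE array, and among the 8 tested member probes these were A2m and Il6. The study picked out A2m on these same arrays, so its direction is not independent evidence.

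With NMO-IgG against control IgG, A2m was 6-fold higher where T cells were present and at 0.951-fold where they were absent. The difference between these log2 ratios was 2.66, which cannot be tested with 1 array a group. ENMO and control IgG only were on slide 1 and the other 2 arrays on slide 2, so slide and this difference cannot be told apart. The effect of T cells on A2m likewise ran in both directions: log2 0.71 with NMO-IgG, -1.94 with control IgG and -1.22 without antibody. Over all arrays it was -0.82 with an SE of 0.76 (limma adjusted p = 0.681), and the additive antibody difference was 1.26 with an SE of 0.86 (adjusted p = 1). In the order of levels, control IgG only and NMO-IgG only differed by 1.05-fold and EAEcoI and EAEcoP by 1.1-fold. Both lay within the 1.47-fold spread of the 10-spot probes, while the healthy control stood 2.12-fold above EAEcoI. The A2m probe has 1 spot on each array, so its own spread is not known.

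**Figure D3:**
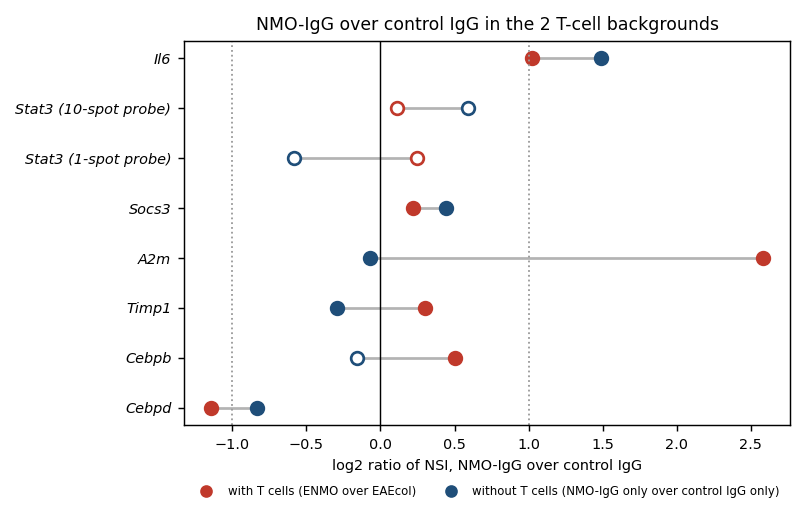
log2 ratio of NSI, NMO-IgG over control IgG, for the 8 tested member probes with T cells (red, ENMO over EAEcoI) and without (blue, NMO-IgG only over control IgG only). Filled points have both arrays well above background and open points do not; dotted lines mark 2-fold. Il6 lay beyond 2-fold in both backgrounds (1.02 and 1.49), and A2m only with T cells (2.58 against -0.07).

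Some markers of microglia and macrophages were also highest in ENMO. The summed NSI of the 5 genes of that list was 15236 for ENMO, against 5301 for EAEcoI, 3098 for EAEcoP and 2020 to 3537 without T cells. All 5 were above background on some array and 3 on all. Most of the sum was Tyrobp, an adaptor of myeloid receptors, at 14041 for ENMO, against 4633 for EAEcoI, 2516 for EAEcoP and 1247 to 2653 without T cells. Cd68 was highest in ENMO too (818, against 346 to 741 elsewhere), but Aif1 (32.4) and Itgam (10.2) were highest in EAEcoP and Csf1r (389) with NMO-IgG only. The T-cell list summed to 2490 for ENMO, against 1028 for EAEcoI, 926 for EAEcoP and 710 to 999 without T cells, with 3 of its 5 genes above background on any array and the defining Cd3e and Cd2 on none. That sum was mainly Cd3d, at 2348 for ENMO and 594 to 924 elsewhere, while Cd3g was as high with control IgG only (103) as in ENMO (99) and Cd5 was higher on 4 other arrays (36.5 to 45.6) than in ENMO (34.5). The part of these cells in the A2m and Il6 values was not tested. In such bulk samples fewer cells of a type and less RNA per cell cannot be told apart.

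As a check of the tissue label, all 5 oligodendrocyte markers were above background, 4 of them on all arrays, with a summed NSI of 1642 to 3715. Of 5 astrocyte markers 3 were above background on any array and 0 on all, with a summed NSI of 40 to 69, and Slc1a3 and S100b were so on none. Aqp4, which encodes the target of NMO-IgG, was above background in EAEcoP only, at 7.67. It read higher with control IgG only, at 12.3, without being above background there. The detection floor was 5.53 in EAEcoP and 11.56 with control IgG only, so this flag does not rank the arrays. Of 5 neuronal markers 4 were above background, Syt1 being the exception. The hepatocyte list, relevant because acute-phase proteins are made in the liver, summed to 59 to 302, highest in EAEcoP. Of its 4 genes 3 were above background on some array and Apoa1 on none. Apoa2 was above background on all 6 arrays, at 79.4 to 263 with T cells and 34 to 73 without. The neutrophil list summed to 1030 to 2013 with T cells and 715 to 963 without, a separation due to Np4 (781 to 1651 with T cells and 461 to 683 without). S100a9 was higher on all arrays with T cells too (15 to 39.2, against 3.97 to 11.5), as were 11.3% of all probes. It was above background in EAEcoI and EAEcoP only. Elane and Mpo overlapped between the sides. S100a8 ran the other way (4.27 to 14.6 with T cells, 15.3 to 73.7 without) and was above background with NMO-IgG only, at 73.7, and on no other array. The endothelial list summed to 133 to 314 and the erythroid list to 83 to 138, in each case over arrays that overlapped between the sides. Among the endothelial genes, however, Pecam1 (27 to 32.6, against 72.2 to 118) and Tek (7.9 to 23.1, against 24.5 to 41.8) were lower on all arrays with T cells. Of all probes, 6.79% were so. Cdh5 and Vwf overlapped.

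Timp1, which encodes an inhibitor of matrix metalloproteinases and is a known target of IL-6 family cytokines, was the least variable member. Its NSI was 190 in ENMO, 154 in EAEcoI and 177 in EAEcoP, against 135 with NMO-IgG only, 165 with control IgG only and 130 in the healthy control. All 6 values lay within 1.46-fold of each other. The T-cell difference was log2 0.28 with an SE of 0.49 (limma adjusted p = 0.83), and NMO-IgG against control IgG was 1.23-fold with T cells and 0.819-fold without. Among the member probes with 10 spots, Timp1 alone had all 10 well above background on each array. Its spot SD ran from 0.06 (log2) in EAEcoP to 0.52 in the healthy control.

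Over the 8 tested member probes, 0 passed an adjusted p of 0.05 in any of the 3 limma comparisons, as did 0% of the 27468 probes tested. For NMO-IgG against control IgG 1.34% of all probes, and for control IgG against no antibody 2.44%, had an unadjusted p under 0.05, and 0 member probes did. With a side that was not above background taken at its detection floor, 1 member probe was at least 2-fold higher with T cells (Cebpd) and 1 lower (Il6), beside 9.57% and 10.6% of all probes. For ENMO over EAE, 2 were higher (Il6 at 3.02-fold and A2m) and 1 was lower (Cebpd at 3.46-fold), beside 11.8% and 14.8%. Without the floor the 10-spot Stat3 probe was also counted, as higher with T cells and lower in ENMO than in EAE, and the shares of all probes were then 17% and 11.2% for T cells and 12.5% and 24.2% for ENMO over EAE. No member probe had arrays with T cells wholly above or below those without, as 18.1% of all probes did. The median log2 difference of the 8 member probes, 2 of them for Stat3, was 0.13 for T cells and 0.32 for ENMO over EAE. Over all probes it was 0.01 and -0.13. With 1 probe for each of the 7 tested genes, leaving out the 10-spot Stat3 probe, the member medians were -0.03 and 0.44.

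The wider IL-6 family pathway, of ligands, receptors, kinases, inhibitors and targets, was given by 27 listed genes. Of these, 25 had a probe, 23 were above background somewhere and 22 had a value on all arrays. With T cells 0 of the 22 were at least 2-fold higher with the floor applied and 4 were lower, beside 9.57% and 10.6% of all probes. Without the floor 2 were higher, Jak2 and Cntf, which were above background on no array without T cells. For ENMO over EAE 4 were higher and 4 lower (5 without the floor), beside 11.8% and 14.8% of all probes. The median log2 difference was 0.01 for T cells and 0.13 for ENMO over EAE. None passed the limma test at an adjusted p of 0.05, and 2 of the 22 had an unadjusted p under 0.05, beside 11.5% of all probes. Arrays with and without T cells did not overlap for 3 of the 22, beside 18.1% of all probes. Of these, Clcf1 was lower with T cells, and Il11ra1 (48.7 to 63.4, against 19.9 to 42.5) and Jak2 were higher. Jak2 was above background in EAEcoI and EAEcoP only.

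Clcf1, a ligand of the CNTF receptor complex, was lower on every array with T cells. Its NSI was 33.7 in ENMO, 54.6 in EAEcoI and 43.3 in EAEcoP, against 186 with NMO-IgG only, 83.7 with control IgG only and 178 in the healthy control. The groups did not overlap, as for 6.79% of all probes in this direction, and the log2 difference was -1.71 with an SE of 0.55 (limma adjusted p = 0.288). Il11, another gp130 ligand, ran much as Il6 did, at 32, 12.8 and 5.34 with T cells, of which the last was not well above background, and at 50.3, 29 and 37.4 without. Il11 in ENMO exceeded EAE by 3.52-fold, and its T-cell difference was log2 -1.55 with an SE of 0.69 (adjusted p = 0.436). Pim1, a kinase gene driven by STAT3, ranged more than any member, from 60.6 in EAEcoP to 22944 in the healthy control, with 634 in ENMO, 8262 in EAEcoI, 743 with NMO-IgG only and 1546 with control IgG only. Its log2 difference with T cells was -2.13 with an SE of 1.70 (adjusted p = 0.635).

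Lifr, the receptor of leukaemia inhibitory factor, was above background in ENMO (22.3) and control IgG only (27.1), and ENMO was at least 2.58-fold above EAEcoI and at least 3.65-fold above EAEcoP. Pias3, an inhibitor of STAT3, was 16.4 in ENMO, 21.1 in EAEcoI and 101 in EAEcoP, so that the 3.70-fold lower value in ENMO came from EAEcoP. Bcl3, a STAT3 target named here after its values were seen, was above background on all 3 arrays with T cells (77.4 in ENMO, 26 in EAEcoI and 98.3 in EAEcoP), but on neither of the 2 arrays without T cells that had a value (4.17 and 15.6). This placed the arrays with T cells at least 4.53-fold higher, but Bcl3 did not pass the limma test (adjusted p = 0.267). With the floor applied, 9.57% of all probes were at least 2-fold higher with T cells. The T-cell differences of the other listed target genes ran from log2 -2.13 (Pim1) to 0.83 (Il1rn).

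**Figure D4:**
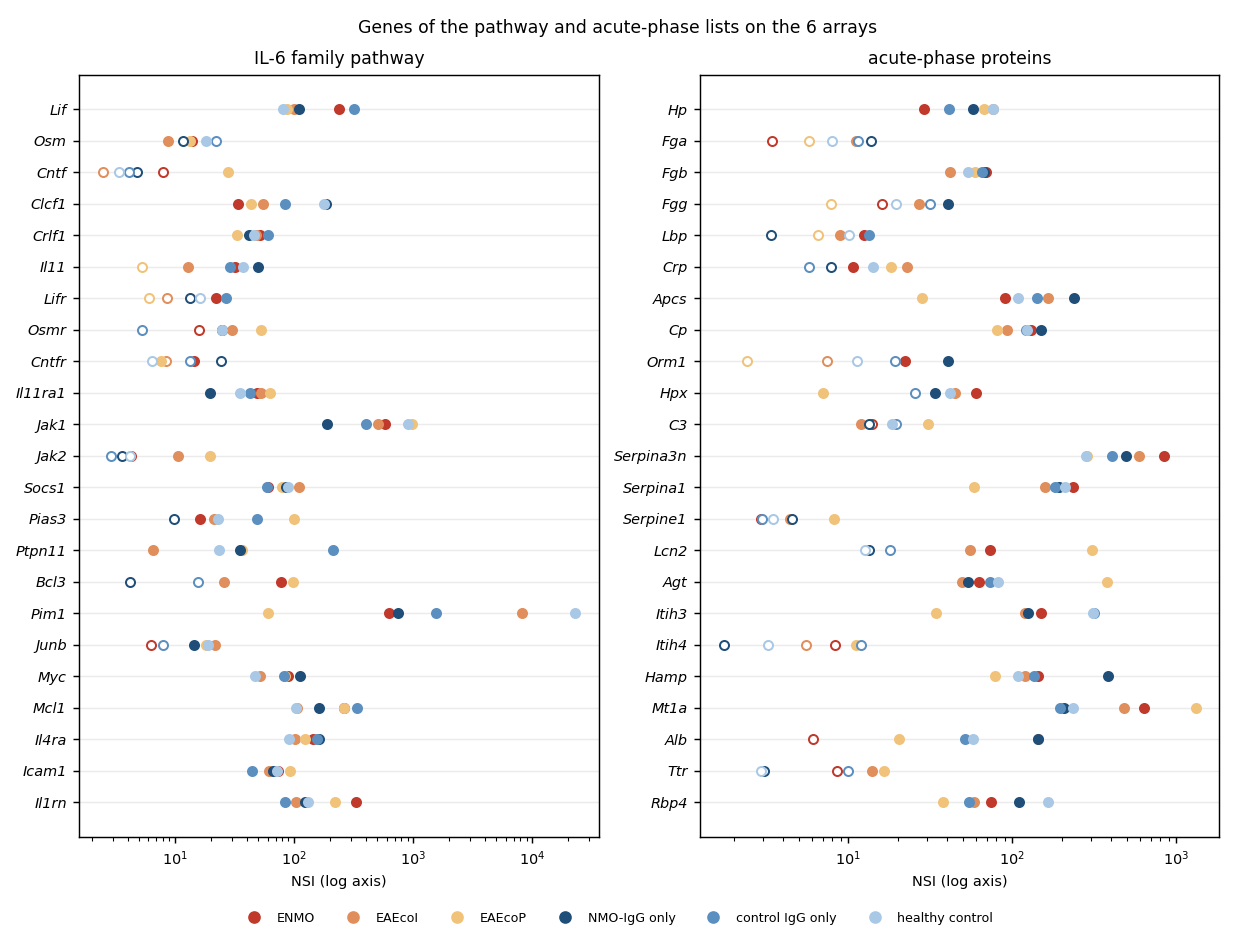
NSI (log axis, arbitrary units) of the listed IL-6 family pathway genes and acute-phase genes above background on at least 1 array, 1 point for each array. Filled points were well above background and open points were not. Clcf1 was lower, and Il11ra1, Jak2, Lcn2 and Mt1a were higher, on all 3 arrays with T cells (red and orange) than on those without (blue).

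Of 24 listed acute-phase genes, 23 had a probe and all 23 were above background on at least 1 array. With T cells 2 were at least 2-fold higher with the floor applied (3 without it) and 4 lower, beside 9.57% and 10.6% of all probes, with a median log2 of -0.15. For ENMO over EAE 3 were higher and 4 lower (6 without the floor), beside 11.8% and 14.8% of all probes, with a median of -0.11. No gene passed an adjusted p of 0.05 in the limma fit, and 3 of the 23 had an unadjusted p under 0.05, beside 11.5% of all probes.

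Lcn2, the iron-siderophore-binding lipocalin made by reactive glia and neutrophils, was above background only with T cells. It read 73.3 in ENMO, 55.2 in EAEcoI and 308 in EAEcoP, against 13.3, 18 and 12.7, a difference of at least 7.44-fold (limma adjusted p = 0.191). Mt1a, a metallothionein gene, read 639, 478 and 1314 with T cells in the same order and 206, 196 and 235 without, a log2 difference of 1.80 with an SE of 0.55 (adjusted p = 0.271). Both genes were wholly higher with T cells, as were 11.3% of all probes. Both were highest in EAEcoP, where Cebpd was highest too, as were 31.5% of all probes. Ttr, a transport protein that falls in acute-phase responses, was above background in EAEcoI (13.9) and EAEcoP (16.6) only, at least 1.15-fold above the arrays without T cells.

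Between ENMO and EAE the order of the acute-phase genes was mixed. Orm1, a positive acute-phase protein, was at 22.1 in ENMO, at least 2.99-fold above EAEcoI and at least 4-fold above EAEcoP, which were not above background, but NMO-IgG only had a higher value of 40.4. Alb, encoding albumin, was not above background in ENMO and there at least 17.6-fold lower than in EAEcoI (144) and at least 2.48-fold lower than in EAEcoP (20.3).

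Tcirg1, Rab5c and Ptpn6 were tied to IL-6 by the study on these arrays, so their direction here is not independent evidence. For the proteins Ptpn6 and Rab5c, the study separately counted more stained cells in ENMO than in EAEcoI cords. Tcirg1, a subunit of the vacuolar proton pump, was 2476 in ENMO, 393 in EAEcoI and 1433 in EAEcoP, against 266, 898 and 568 without T cells. Rab5c, an early endosome GTPase, was 652, 137 and 767 with T cells and 543, 472 and 455 without. Ptpn6, a phosphatase of blood cells, was 390, 235 and 215 with T cells and 110, 99.8 and 135 without. Only Ptpn6 was separated between arrays with and without T cells, being higher with them, as were 11.3% of all probes. Its log2 difference was 1.24 with an SE of 0.51, which did not pass the limma test (adjusted p = 0.407). ENMO was above both EAE arrays for Tcirg1 and Ptpn6, and below EAEcoP for Rab5c.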

How the data were processed

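RNA of 6 pools was hybridised to 6 one-colour Agilent whole-genome rat arrays. The authors deposited scanner tables made with Feature Extraction 10.1.1.1, in which each spot has a background-corrected intensity and a flag for being well above background, and tables of the same intensity averaged per target. The arrays lie on 2 slides, each with 3 groups. Median corrected intensity per array was 5.49 to 20.01, and precision is limited by the number of arrays.

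Outlier spots were left out, log2 intensities of a probe's spots were averaged, and 41012 probes were quantile-normalized (limma 3.58.1, R 4.3.3, Python 3.11.15). A probe was well above background if at least 50% of its used spots were flagged, and 27468 probes so flagged on at least 1 array were tested. Counts of folds and orders used the 27274 of these with a value on all 6 arrays. limma's lmFit and eBayes compared 3 arrays with T cells against 3 without, and antibodies in a model of T cells and antibody, with Benjamini-Hochberg adjustment over all tested probes. Calls used an adjusted p of 0.05 or 2-fold. The arrays of a side differ in antibody and are pools, so p-values measure the spread between these arrays. Where one side was not above background, folds were bounds against the lowest NSI of probes above background on that array (the floor) or the probe's own value if higher. Counting 2-fold changes with this floor was chosen after seeing the data. The script was tested on simulated data.

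The members, lists and tests were chosen with earlier results of these data known. From the pathway and acute-phase lists, the 3 genes with the largest change past 2-fold in each direction were named for T cells and for ENMO over EAE. A gene with several probes was given by the probe with the highest mean NSI. Promoters came from RefSeq (GRCr8). Alternatives were 75th percentile scaling, normexp (offset 50), outlier spots kept, other filters, the per-target intensities, antibody or slide as a block, single slides, single EAE arrays, log2 means for ratios, arrays left out and, chosen after seeing the data, removal of a local trend over 5 rows and columns either side.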

Additional observations from a re-analysis of the deposited data

Results flagged for a closer look

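Each pair of ratios here differed in sign and rests on 1 array a group, so the difference between them was not tested. NMO-IgG over control IgG did so with and without T cells for A2m (log2 2.58 with and -0.07 without, a difference of 2.66) and Timp1 (0.30 and -0.29, a difference of 0.59). The A2m ratio without T cells lay within the spread of the 10-spot probes, of which A2m is not one, and was 0.48 with normexp. Slide cannot be told apart from these differences. Control IgG over no antibody differed in sign for Il6 (1.55 with T cells and -0.82 without, a difference of 2.38), Socs3 (0.87 and -0.25, a difference of 1.11), Timp1 (-0.20 and 0.34, a difference of -0.54) and Cebpd (-1.09 and 1.29, a difference of -2.38). EAEcoI and the healthy control were on slide 2, and EAEcoP and control IgG only on slide 1. Slide therefore cannot be told apart from the control IgG differences either. For comparison, single spots on 2 arrays differed with an SD of 0.766 (log2).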

How the results depend on the processing

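No paired analysis was possible by replicate number because each group had 1 array. With antibody treatment as a block, 0 probes passed an adjusted p of 0.05 for T cells and 2866 an unadjusted one (3149 without the block). No member probe reached an adjusted p of 0.05 in any limma comparison under any alternative run. Over all probes the count of such calls was 0 with all arrays and 0 to 213 when 1 array was left out for T cells (213 without ENMO and 3 without EAEcoI), 0 to 262 for NMO-IgG against control IgG (262 without control IgG only, 7 without EAEcoI) and 0 to 310 for control IgG against no antibody (310 without control IgG only, 65 without EAEcoI). With slide as a further block it was 53 for NMO-IgG against control IgG.

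Without the floor, normexp lowered the number of member probes past 2-fold to 1 for T cells (from 3), 1 for ENMO over EAE (from 4), 1 for NMO-IgG over control IgG with T cells (from 3) and 0 without T cells (from 1). It lowered the pathway genes to 1 for T cells (from 6) and 2 for ENMO over EAE (from 9), and the acute-phase genes to 2 (from 7) and 5 (from 9). Leaving out 1 array gave 1 to 4 member probes past 2-fold for T cells, with 1 without EAEcoP, and 3 to 6 for ENMO over EAE. The 10-spot Stat3 probe reversed: its T-cell difference was log2 -0.51 within slide 2 and -0.30 to 1.87 with 1 array left out, and its ENMO over EAE ratio was 0.11 with EAEcoI alone and -4.22 with EAEcoP alone. Both follow from EAEcoP being the only array with signal.

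Of the other values of single members, 256 moved by less than 0.766 (log2) and 20 by more. These are not separate checks. With antibody as a block the T-cell differences equal the main ones by design. For ENMO over EAE, leaving out 1 EAE array repeats the ratio to the other alone, so those values were counted again. Il6 for ENMO over EAE ran from log2 0.30 (normexp) to 2.57 (EAEcoP alone), and Il6 for T cells from -1.99 without ENMO to -0.36 (normexp). A2m for ENMO over EAE stayed between 2.12 and 2.95, and Cebpd for T cells between 1.01 and 2.41. Cebpb for ENMO over EAE turned from 0.44 to -0.64 in the per-target intensities, which were not normalized between arrays. Median corrected intensity was 9.75 in ENMO, 17.17 in EAEcoI and 20.01 in EAEcoP. In this setting Socs3 also fell, from 0.58 to 0.06, and Timp1 from 0.20 to -0.27. The part of array brightness in these values was not tested. Stat3 was not taken from the per-target tables, which merge its probes. Low signal limits Il6, Stat3 and Cebpb, and Il6st was below background throughout.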

Other observations

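Over the 6 arrays, the probes whose log2 NSI ran most like that of A2m, the member with the highest mean NSI, were TC606533 (Pearson r = 0.998), Bcl9l (0.992) and AW144490 (0.991), among 11642 probes above background on all arrays. Bcl9l read 565 in ENMO, 210 in EAEcoI and 209 in EAEcoP, against 399, 403 and 332 with NMO-IgG only, with control IgG only and in the healthy control. With 6 points such likeness was common: 322 probes had an r over 0.9.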
